A study of Homo sapiens with 12 samples.

Results

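The genes described here carry symbols made of LINC and a number, the naming scheme for long intergenic non-coding RNAs, transcripts from between protein-coding genes that have not been named for a function. They were taken as the rows of the deposited array table that link to 1 such symbol, with the brightest row kept for each gene. This gave 453 genes, from 461 rows, of the 14599 genes with a symbol, and RefSeq lists all 453 as long non-coding RNA. RNA came from Hs695T, a human melanoma cell line, and each of 4 groups had 3 arrays. Treatment lasted 24 h in all 4 groups, vehicle included. One group received the combination of all 3 agents. Another received MAPKi, which was dabrafenib, a BRAF inhibitor, at 100 nM with trametinib, a MEK inhibitor, at 10 nM. A further group received HDACi, which was entinostat at 1 µM, which blocks histone deacetylases of class I, and the last received the vehicle, DMSO. Sample titles number the arrays of a group as biological replicates, while the series description calls them technical, so p-values cover only the spread between these arrays, and all of them come from 1 cell line.

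Long intergenic non-coding RNAs are transcribed, spliced and polyadenylated like messenger RNAs but encode no known protein, and most are present at low copy in a narrow range of cell types. Histone deacetylases remove acetyl groups from histone tails, and their inhibition raises acetylation at many promoters and enhancers. BRAF and MEK lie above the kinase ERK, whose activity in BRAF-mutant melanoma drives transcription factors of the ETS and AP-1 families and feedback inhibitors such as the SPRY and DUSP proteins.

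Signal over the 14599 genes with a symbol differed between the groups, and this bears on every value below. Rows without a symbol were not examined. Median intensity per array over all genes was 46.3 to 53.5 with the combination, 55.1 to 60.9 with MAPKi, 72.1 to 76.6 with HDACi and 80.3 to 92.7 with vehicle, with no overlap between groups. The median log2 intensity of the LINC genes per array was 4.09 to 4.37 with the combination, 4.28 to 4.31 with MAPKi, 4.44 to 4.48 with HDACi and 4.49 to 4.62 with vehicle. Changes below are differences of log2 intensity on the deposited scale with limma's standard error, and the change after quantile normalization, which forces all arrays to one distribution, stands beside them as the quantile value. The words rose and fell are kept for genes whose limma p, adjusted by Benjamini-Hochberg over all 14599 genes, was under 0.05 on the deposited scale. Fewer cells and less RNA per cell cannot be told apart in such bulk samples. As a check of the labels, the ERK targets SPRY4 and DUSP6 changed by -6.08 and -4.52 with MAPKi against vehicle. Of 10 markers of melanocytes and melanoma, 9 were measured. S100B lay above 99.3% and SOX10 above 96.0% of genes in mean intensity, while the pigment genes MLANA, TYR and TYRP1 lay above only 14.0%, 9.85% and 7.51%. Of other cell types, the fibroblast genes DCN and LUM were near the floor of the array, and 4 of 5 epithelial markers were measured, with a summed intensity of 201 to 246 with the combination, 155 to 171 with MAPKi, 375 to 428 with HDACi and 342 to 380 with vehicle. None was listed at 0, and the part of these markers in the results below was not tested.

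LINC genes were dim as a group. Of the 453, 371 (81.9%) lay among the dimmest 40% of all genes, which had a mean log2 intensity of up to 5.56, and 31 lay in the 3 brightest of 10 equal bins of genes. Their median of the mean log2 intensity was 4.39, against 6.05 for all genes, and it ran from 1.90 to 11.63. Brightness depends on the probes as well as on the transcript, so it orders genes by how well they could be measured and not by abundance. The file holds no detection or background measure, and a gene in the dimmest bins may not have been above background.

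The median fall in signal was smaller among LINC genes than among all genes, and brightness went along with this. Against vehicle, the median change of the LINC genes was -0.32 with the combination, against -0.72 for all genes. With MAPKi it was -0.22, against -0.48, and with HDACi it was -0.05, against -0.20. In the dim bins the medians were close, and in the brighter ones they parted. In bin 2 from the dim end, which held 131 LINC genes, the median change with the combination was -0.31 for LINC genes and -0.31 for all genes, and in bin 8, with 22 LINC genes, it was -1.01 and -1.27. Over the brighter 60% of genes it was -0.79 for the 82 LINC genes and -1.08 for all genes. After quantile normalization the LINC medians were -0.00 with the combination, 0.05 with MAPKi and -0.02 with HDACi. With each array's median subtracted, more LINC genes passed as higher than as lower in each comparison with vehicle, so the direction of the group depends on the scaling. No share over all genes is given for that setting. Dim genes in general fell less, with a median of -0.34 with the combination in the dimmest 40% of all genes, so the turn is not read as particular to LINC genes.

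**Figure D1:**
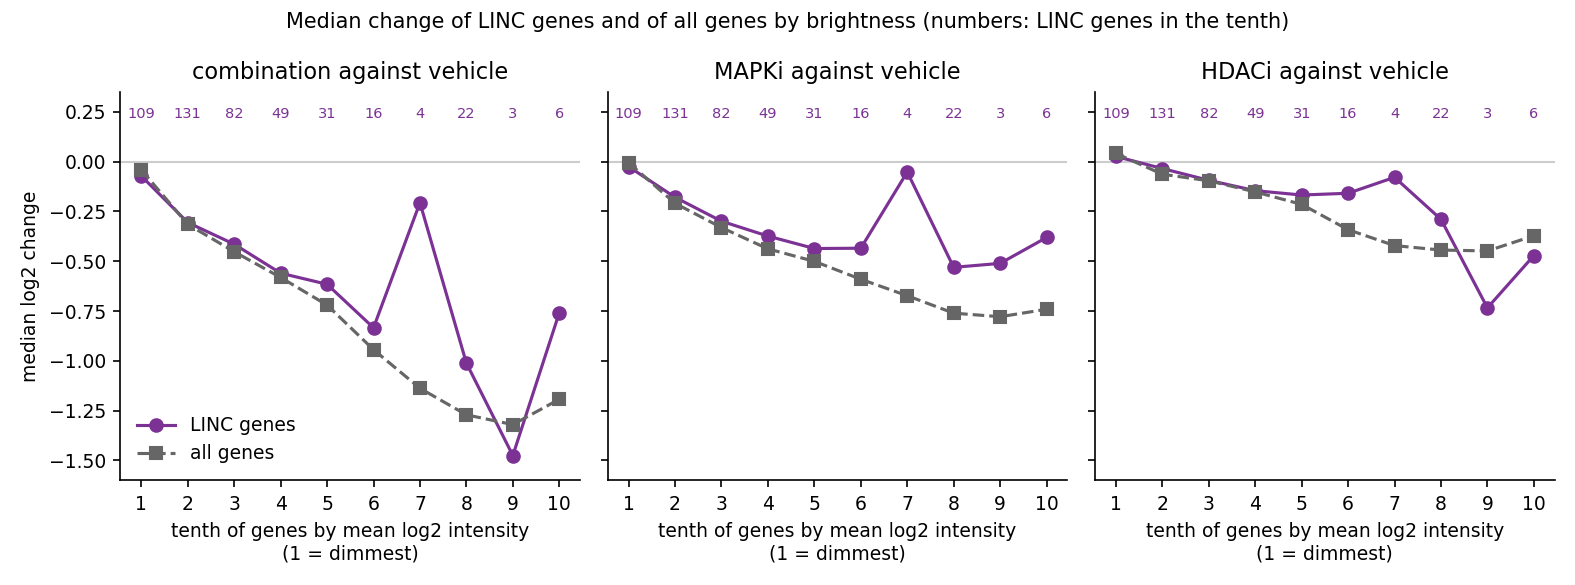
Median log2 change against vehicle of the LINC genes (circles) and of all genes (squares) in 10 equal bins of genes by mean log2 intensity, dimmest at the left, for the combination, MAPKi and HDACi; the numbers along the top count the LINC genes in each bin. The 2 lines lie close together in the 5 dimmest bins, which hold most LINC genes, and bins 7, 9 and 10 hold only 4, 3 and 6 of them.

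LINC00052 and LINC00624 showed the 2 largest rises of the LINC genes with entinostat, with and without MAPKi. LINC00052, transcribed near NTRK3, the gene of a neurotrophin receptor, had log2 intensities of 6.44, 6.37 and 6.68 with the combination, 3.76, 3.80 and 3.45 with MAPKi, 7.71, 7.46 and 7.64 with HDACi and 5.56, 5.17 and 5.62 with vehicle. The groups did not overlap, and they ordered as HDACi, combination, vehicle and MAPKi from high to low. With HDACi it rose 4.44-fold over vehicle (2.15 ± 0.14, adjusted p = 1.3e-08 in limma, quantile 2.20). With MAPKi it fell 3.44-fold (-1.78 ± 0.14, adjusted p = 2.7e-08 in limma, quantile -1.49). Its arrays with MAPKi lay in the dim range, where a signal above background is not assured. The size of this fall, and of any change set against MAPKi, is therefore uncertain. The combination stood 2.06-fold above vehicle (1.04 ± 0.14, quantile 1.89) and 7.09-fold above MAPKi (2.83 ± 0.14, adjusted p = 1.2e-09 in limma, quantile 3.38), the largest rise of a LINC gene in that comparison. Set against HDACi alone, the combination was lower by 1.11 ± 0.14 (adjusted p = 4.1e-06 in limma), but this did not pass after quantile normalization (-0.31, adjusted p = 0.16 in limma).

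LINC00624, which lies next to BCL9, a co-activator of Wnt signalling, had log2 intensities of 6.64, 6.97 and 6.76 with the combination, 3.99, 4.06 and 3.94 with MAPKi, 6.99, 7.24 and 6.76 with HDACi and 4.48, 4.40 and 4.54 with vehicle. All 6 arrays with entinostat lay above all 6 without it, and the combination and HDACi arrays overlapped. It rose 5.73-fold with HDACi against vehicle (2.52 ± 0.13, adjusted p = 1e-09 in limma, quantile 2.48), the largest rise of a LINC gene, and 6.94-fold with the combination against MAPKi (2.79 ± 0.13, quantile 3.37). Its fall with MAPKi alone was small (-0.48 ± 0.13, adjusted p = 0.003 in limma) and did not pass after quantile normalization (-0.25), and with each array's median subtracted its sign turned (0.0703). All 6 arrays of LINC00624 without entinostat lay in the dim range, where a signal above background is not assured. The sizes of its rises and of its fall with MAPKi are therefore uncertain. MAPKi lowered LINC00052 on both scales, and whether the 2 genes differ in this was not tested. Between the combination and HDACi it did not pass (-0.20 ± 0.13, adjusted p = 0.15 in limma), and after quantile normalization the combination was higher (0.63, adjusted p = 0.0012 in limma). BCL9 itself fell with HDACi (-0.76 ± 0.11, quantile -0.39), opposite to its neighbour.

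**Figure D2:**
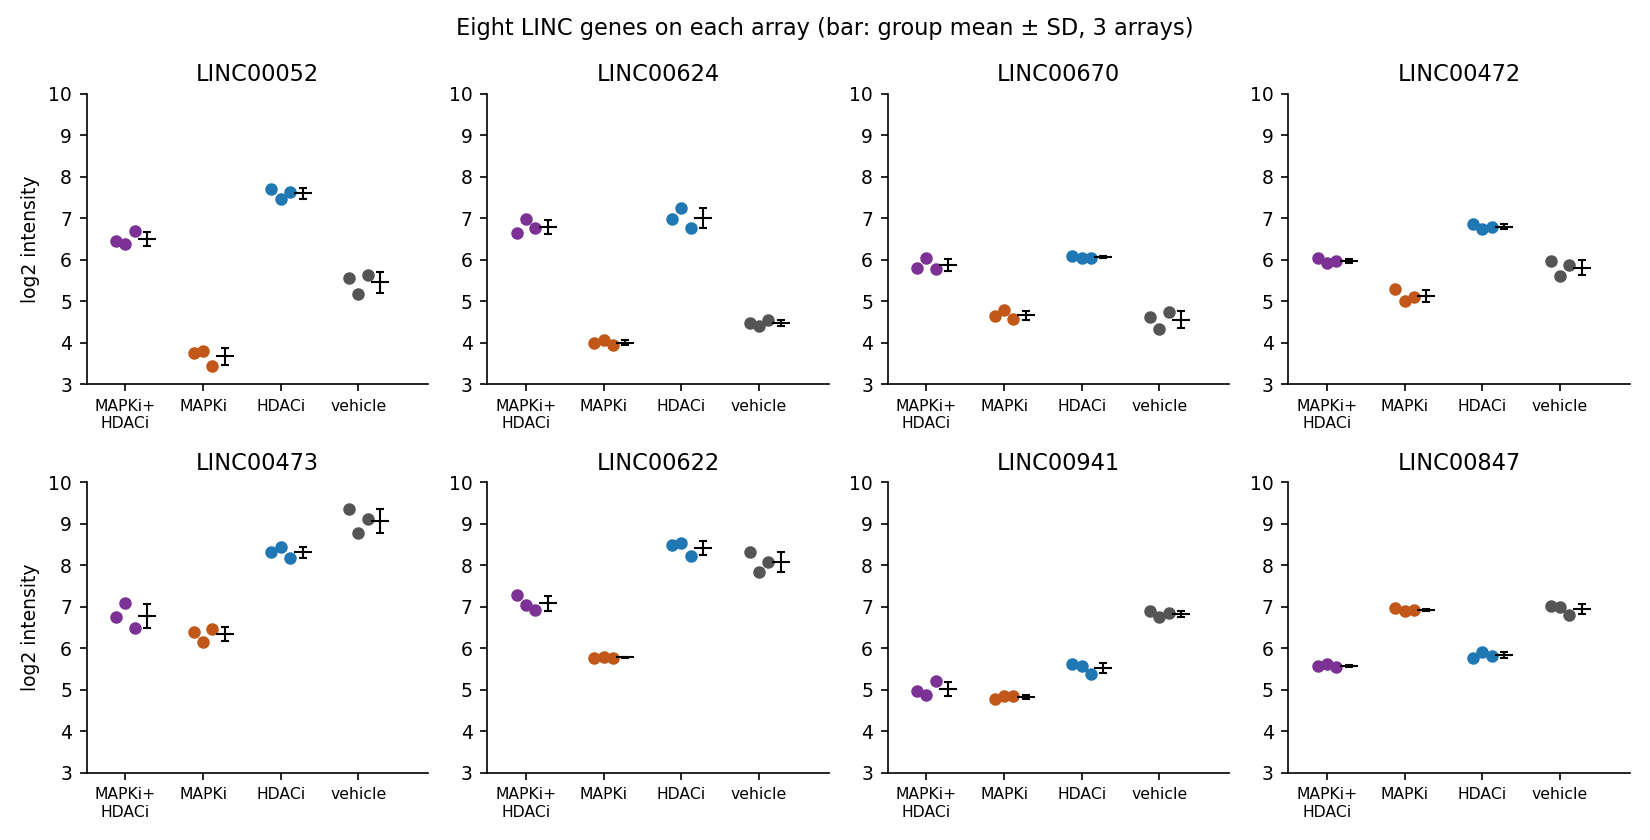
Log2 intensity of 8 LINC genes on each of the 12 arrays (points), with group mean ± SD (bars, n = 3 arrays), in the order combination, MAPKi, HDACi and vehicle. On this deposited scale LINC00052, LINC00624, LINC00670 and LINC00472 (top) have their highest mean with HDACi, though LINC00624 overlaps there with the combination. After quantile normalization the changes of LINC00624 and LINC00670 against vehicle were larger with the combination (3.11 and 1.94) than with HDACi (2.48 and 1.47). LINC00473 and LINC00941 (bottom) are highest with vehicle, LINC00622 is lowest with MAPKi, and LINC00847 is low on all 6 arrays with entinostat.

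Entinostat alone was set against vehicle to show which LINC genes responded to deacetylase inhibition. Of the 453, 26 (5.74%) rose and 48 (10.6%) fell, against 10.4% of all genes higher and 37.2% lower. After quantile normalization 37 were higher and 19 lower, against 18.5% and 21.1% of all genes, and of these LINC genes 23 and 19 had also passed in that direction on the deposited scale. In the dimmest 40% of genes 4.85% of LINC genes rose, against 8.96% of all genes there, and in the other 60% it was 9.76%, against 11.3%. LINC00670, which lies next to MYOCD, the gene of a smooth muscle and heart transcription co-activator, had 6.08, 6.05 and 6.05 with HDACi, against 4.62, 4.32 and 4.73 with vehicle. The arrays of the 2 groups did not overlap, and it rose 2.83-fold (1.50 ± 0.12, quantile 1.47). LINC00670 lay among the dimmest 40% of genes in mean intensity, and a signal above background is not assured for its arrays without entinostat. It also rose with MAPKi present: its log2 intensity was 5.80, 6.03 and 5.78 with the combination, against 4.64, 4.78 and 4.56 with MAPKi (1.21 ± 0.12, quantile 1.54). LINC00472, reported as a growth-restraining transcript in breast cancer, had 6.85, 6.74 and 6.79 with HDACi, against 5.96, 5.61 and 5.86 with vehicle (0.98 ± 0.11, quantile 1.09). With MAPKi it fell (-0.68 ± 0.11), which did not pass after quantile normalization (-0.22). The combination did not pass against vehicle (0.16 ± 0.11) but did after quantile normalization (0.96), and it stood above MAPKi (0.84 ± 0.11, quantile 1.17). LINC00632, from whose locus the circular RNA CDR1-AS is made, rose by 0.60 ± 0.15 (quantile 0.56).

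Among the other LINC genes that rose with HDACi, 7 had large rises with no overlap of arrays, and of these LINC03027 alone lay outside the dimmest 40% of genes. LINC01549 had 3.50, 3.83 and 4.09 with HDACi, against 2.86, 2.57 and 2.88 with vehicle (1.04 ± 0.20, quantile 0.94), levels at which a signal above background is not assured. LINC01822 (0.79), LINC01426 (0.75), LINC01907 (0.69), LINC03033 (0.68), LINC01252 (0.66) and LINC03027 (0.62) also rose on the log2 scale and passed after quantile normalization. The rows of LINC03027 disagreed, since its other row changed by -0.38 in the same comparison.

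The largest falls with HDACi were those of LINC00941 (-1.31), LINC01546 (-1.23 ± 0.20, quantile -1.07), LINC00847 and LINC01963. Of these, LINC00941 and LINC01546 lay among the dimmest 40% of genes in mean intensity, where a signal above background is not assured. LINC00847, which overlaps the zinc finger gene ZFP62, had 5.77, 5.91 and 5.82 with HDACi, against 7.02, 7.0 and 6.81 with vehicle (-1.11 ± 0.10, adjusted p = 2e-07 in limma, quantile -0.81). It also had 5.56, 5.61 and 5.54 with the combination, against 6.96, 6.89 and 6.91 with MAPKi (-1.35 ± 0.10, quantile -1.13), so all 6 arrays with entinostat lay below all 6 without. ZFP62 changed by -0.31 ± 0.10 with HDACi (quantile -0.06). LINC01963 had 7.0, 7.21 and 7.09 with HDACi, against 8.35, 8.04 and 8.19 with vehicle (-1.09 ± 0.11, quantile -0.65), and its neighbour XRCC5, a subunit of the Ku DNA repair complex, fell too (-0.82 ± 0.10, quantile -0.57). LINC00630 (-1.03), LINC00921 (-1.03), LINC01278 (-0.92), LINC00470 (-0.92), LINC01116 (-0.89), LINC00839 (-0.80), LINC00997 (-0.80) and LINC01089 (-0.77) fell on the log2 scale and passed in the same direction after quantile normalization.

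MAPKi alone was set against vehicle to show which LINC genes changed when ERK signalling was blocked. Of the 453, 10 (2.21%) rose and 160 (35.3%) fell, against 2.97% of all genes higher and 66.2% lower. After quantile normalization 42 were higher and 19 lower, against 15.1% and 13.9% of all genes. All 19 had fallen on the deposited scale as well, 7 of the 42 had risen on it, and 12 had fallen on it. With each array's median subtracted, more LINC genes were higher than lower, a setting for which no share over all genes is given. The strongest fall was that of LINC00473, a transcript known to be induced by cAMP and the factor CREB. It had log2 intensities of 6.40, 6.16 and 6.46 with MAPKi, against 9.34, 8.77 and 9.10 with vehicle. The groups were far apart, and it fell 6.63-fold (-2.73 ± 0.16, adjusted p = 1.1e-09 in limma, quantile -1.94). LINC00473 overlaps PDE10A, which has no named row, and whether its probes also read that transcript was not tested.

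LINC00622 had 5.76, 5.79 and 5.77 with MAPKi, against 8.31, 7.84 and 8.07 with vehicle, and fell 4.91-fold (-2.30 ± 0.13, quantile -1.51). Its neighbour ZNF697, a zinc finger gene, fell too (-1.38 ± 0.12, quantile -0.74). LINC00941, reported to be high in several carcinomas, had 4.77, 4.86 and 4.86 with MAPKi, against 6.89, 6.75 and 6.85 with vehicle, and fell 4.0-fold (-2.0 ± 0.11, quantile -1.39). It lay among the dimmest 40% of genes in mean intensity. LINC00920, next to the endothelial cadherin gene CDH5, had 6.64, 6.38 and 6.52 with MAPKi, against 8.47, 8.37 and 8.36 with vehicle, and fell 3.70-fold (-1.89 ± 0.11, quantile -1.09). None of these 3 genes had overlapping arrays in the 2 groups. LINC01546 (-1.44), LINC00312 (-1.27), LINC00239 (-1.20), LINC00659 (-1.20) and LINC00467 (-1.02) fell on the log2 scale and passed in the same direction after quantile normalization. LINC00312 overlaps LMCD1, which encodes a LIM domain transcriptional co-regulator and fell alike (-1.38 ± 0.11, quantile -0.57).

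Few LINC genes rose with MAPKi. LINC03006 had 8.50, 8.04 and 7.74 with MAPKi, against 7.23, 6.89 and 6.94 with vehicle, so the lowest MAPKi array still lay above the highest vehicle array (1.07 ± 0.16, adjusted p = 2.9e-05 in limma, quantile 1.75). Its other row rose likewise, by 1.51. LINC01549, which rose with HDACi as well, rose by 0.91 ± 0.20 (quantile 0.95), but it is dim and a signal above background is not assured. LINC01341 had 6.44, 6.26 and 6.50 with MAPKi, against 5.86, 5.41 and 5.51 with vehicle (0.81 ± 0.13, quantile 1.24). LINC00882 (0.44 ± 0.12, quantile 0.68) and LINC01915 (0.38 ± 0.10, quantile 0.54) rose by less. LINC02458, which lies next to DUSP6, had 3.30, 3.62 and 3.66 with MAPKi, against 3.41, 3.27 and 3.46 with vehicle, which did not pass (0.15 ± 0.12), while DUSP6 was among the strongest falls on the array. It is in the dimmest bin, so a change may not have been measurable.

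Promoter sequence is shown for 2 genes with strong falls under MAPKi, LINC00473 and LINC00941, and 2 that rose with entinostat, LINC00670 and LINC00472. Each window is RefSeq's for GRCh38.p14 and runs from 250 bases before to 50 bases after the start of the gene, 5′ to 3′ on the gene's strand. They lie at chr6:165987990-165988289 (minus strand), chr12:30795431-30795730 (plus), chr17:12549718-12550017 (plus) and chr6:71420696-71420995 (minus). Capitals mark matches, on either strand, to AP-1 (TGANTCA), the core of the cAMP response element (TGACG), ETS (CCGGAAG), the E-box (CACGTG) and the GC box (GGGCGG).
LINC00473: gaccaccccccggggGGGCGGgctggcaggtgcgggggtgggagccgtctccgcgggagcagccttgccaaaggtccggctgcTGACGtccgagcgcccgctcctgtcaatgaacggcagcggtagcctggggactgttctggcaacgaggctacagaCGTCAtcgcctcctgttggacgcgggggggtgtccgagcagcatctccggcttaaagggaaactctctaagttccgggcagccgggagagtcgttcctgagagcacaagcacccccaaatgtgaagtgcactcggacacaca
LINC00941: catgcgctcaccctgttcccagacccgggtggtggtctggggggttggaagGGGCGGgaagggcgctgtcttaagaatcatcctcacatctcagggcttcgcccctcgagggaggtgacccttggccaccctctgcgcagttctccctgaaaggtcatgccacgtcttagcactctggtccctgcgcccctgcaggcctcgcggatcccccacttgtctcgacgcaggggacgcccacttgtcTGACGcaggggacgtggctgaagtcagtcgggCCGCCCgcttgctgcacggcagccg
LINC00670: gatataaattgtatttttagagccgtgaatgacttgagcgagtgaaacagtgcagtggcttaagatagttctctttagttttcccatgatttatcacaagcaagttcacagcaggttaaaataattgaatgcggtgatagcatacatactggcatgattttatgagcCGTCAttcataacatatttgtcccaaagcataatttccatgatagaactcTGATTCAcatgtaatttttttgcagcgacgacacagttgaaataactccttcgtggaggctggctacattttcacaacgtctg
LINC00472: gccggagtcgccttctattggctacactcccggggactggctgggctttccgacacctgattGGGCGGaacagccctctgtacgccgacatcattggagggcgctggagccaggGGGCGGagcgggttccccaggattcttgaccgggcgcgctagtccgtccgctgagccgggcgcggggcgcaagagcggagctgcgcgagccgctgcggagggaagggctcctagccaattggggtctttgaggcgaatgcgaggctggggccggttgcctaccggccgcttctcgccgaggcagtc

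LINC00473 held 2 such cAMP element cores, at -167 and -92 from the start, and 1 GC box. LINC00941 held 1 core, at -7, and 2 GC boxes. The LINC00670 window, with a GC content of 37.7%, held an AP-1 match and a cAMP element core, and that of LINC00472, with a GC content of 68.7%, held 2 GC boxes. Among 27305 promoters in the table, the core was in 25.0%, the GC box in 44.6% and the AP-1 motif in 7.76%, so such matches are common and are given as a description of the letters only. LINC promoters were poorer in CpG than most. Of the 453 genes, 321 had a window, with a median GC content of 49.3% and a median of 5 CpG, against 63.3% and 23 in windows of 10571 measured genes. A GC box was in 24.3% of LINC windows, an ETS motif in 6.54% (10.7% of all promoters in the table) and an AP-1 motif in 12.8%. In the windows of the measured genes these shares were 60.5%, 15.0% and 5.89%. Dim LINC genes differed from brighter ones here: a median GC content of 48.0% in 262 of the dimmest 40% of genes and 60.3% in 59 of the rest. The 34 LINC genes lower with HDACi had a median GC content of 59.2% and the 16 higher had 47.2%, against 48.3% in the 271 that did not pass, and those shares move with brightness too. After quantile normalization the 14 lower genes had 55.3%, the 25 higher had 52.0% and the 282 others had 48.8%, so the gap between higher and lower genes was smaller.

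The combination was set against vehicle to show where all 3 agents together left the LINC genes. Of the 453, 16 (3.53%) rose and 223 (49.2%) fell, against 4.38% of all genes higher and 74.3% lower. Without the second combination array 10 rose. After quantile normalization 56 were higher and 34 lower, against 22.1% and 24.2% of all genes. All 34 had also fallen on the deposited scale, and of the 56, 13 had risen and 13 had fallen on it. With each array's median subtracted, more LINC genes were higher than lower here too, again with no share over all genes given. LINC00624 rose most (2.31 ± 0.13, quantile 3.11), followed by LINC01549 (1.48 ± 0.20, quantile 1.66) and LINC00670 (1.31 ± 0.12, quantile 1.94). Of these, LINC01549 rose with MAPKi alone and with HDACi alone, and its signal above background is not assured. LINC01260 was higher with the combination than with any other treatment. It had log2 intensities of 6.45, 6.20 and 6.41 with the combination, 6.02, 5.34 and 5.43 with MAPKi, 5.59, 5.79 and 5.71 with HDACi and 5.71, 5.12 and 5.24 with vehicle. It rose with the combination against vehicle (1.00 ± 0.17), MAPKi (0.76 ± 0.17) and HDACi (0.66 ± 0.17), whereas neither MAPKi nor HDACi alone passed against vehicle (0.24 ± 0.17 and 0.34 ± 0.17). After quantile normalization MAPKi alone passed (0.64, adjusted p = 0.01 in limma). The interaction did not pass on the deposited scale (0.42 ± 0.24, adjusted p = 0.36 in limma) but did after quantile normalization (0.77, adjusted p = 0.046 in limma). LINC00882, which also rose with MAPKi alone, had 5.06, 5.17 and 4.88 with the combination, 4.75, 4.39 and 4.37 with MAPKi, 4.36, 4.45 and 4.26 with HDACi and 4.17, 4.05 and 3.97 with vehicle. The combination arrays lay above all the others, and it rose against vehicle by 0.98 ± 0.12 (quantile 1.37).

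The strongest falls with the combination against vehicle were of genes that MAPKi, entinostat or both lowered alone. LINC00473 had 6.75, 7.09 and 6.49 with the combination, 6.40, 6.16 and 6.46 with MAPKi, 8.31, 8.44 and 8.17 with HDACi and 9.34, 8.77 and 9.10 with vehicle, and it fell 4.90-fold against vehicle (-2.29 ± 0.16, quantile -1.03). LINC00920 had 6.42, 6.28 and 6.44 with the combination and fell 4.07-fold (-2.02 ± 0.11, quantile -0.82), with HDACi alone not passing (-0.24 ± 0.11). LINC01963 had 6.40, 6.24 and 6.40 with the combination, below the 7.75, 7.83 and 7.67 with MAPKi and the 7.0, 7.21 and 7.09 with HDACi, and fell 3.60-fold against vehicle (-1.85 ± 0.11, quantile -0.65). In 3 of the 12 strongest falls the call did not pass after quantile normalization: LINC03009 (-1.61, quantile -0.32), LINC01278 (-1.49, quantile -0.22) and LINC00997 (-1.48, quantile -0.18).

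Entinostat's effect could be read in 2 ways on separate arrays, as the combination minus MAPKi and as HDACi minus vehicle. Across the 453 LINC genes these changes had a Pearson r of 0.71 and a Spearman rho of 0.448 (quantile r 0.707), against an r of 0.76 and a rho of 0.724 over all genes. Genes are not independent replicates, and the brightness of a probe set touches both changes. In the 371 genes among the dimmest 40% of all genes r was 0.457, and in the other 82 it was 0.865. With MAPKi present, 17 (3.75%) LINC genes rose and 63 (13.9%) fell, against 8.68% of all genes higher and 40.6% lower, and without the second combination array 98 fell. After quantile normalization 41 were higher and 40 lower, against 19.9% and 23.5% of all genes. Of the risen genes, 10 rose in both backgrounds, which is 58.8% of the 17 and 38.5% of the 26, and 27 fell in both, 42.9% of the 63 and 56.2% of the 48. Over all genes these shares were 69.1% and 57.9% for higher and 73.7% and 80.6% for lower genes. In opposite directions 3 of the 453 LINC genes passed, against 146 of all 14599 genes.

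The MAPKi effect was read likewise as the combination minus HDACi and as MAPKi minus vehicle. In the presence of entinostat 4 (0.883%) LINC genes rose and 189 (41.7%) fell, against 0.644% of all genes higher and 72.6% lower. After quantile normalization 32 were higher and 13 lower, against 11.4% and 11.6% of all genes. Without the second vehicle array, or without the third HDACi array, 7 rose. The 4 were LINC00882 (0.68), LINC01260 (0.66), LINC03006 (0.61) and LINC01545 (0.42). Across the LINC genes r was 0.674 and rho 0.555, and after quantile normalization r was 0.564 and rho 0.326. Of the fallen genes, 111 fell in both backgrounds, 58.7% of the 189 and 69.4% of the 160, while over all genes the shares were 82.3% and 90.3% and r was 0.735. LINC00659, which lay among the dimmest 40% of genes in mean intensity, fell most with MAPKi in the presence of entinostat. It had 4.73, 4.91 and 4.27 with the combination, against 6.50, 6.41 and 6.52 with HDACi, and fell 3.58-fold (-1.84 ± 0.17, adjusted p = 1.6e-07 in limma, quantile -1.43).

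**Figure D3:**
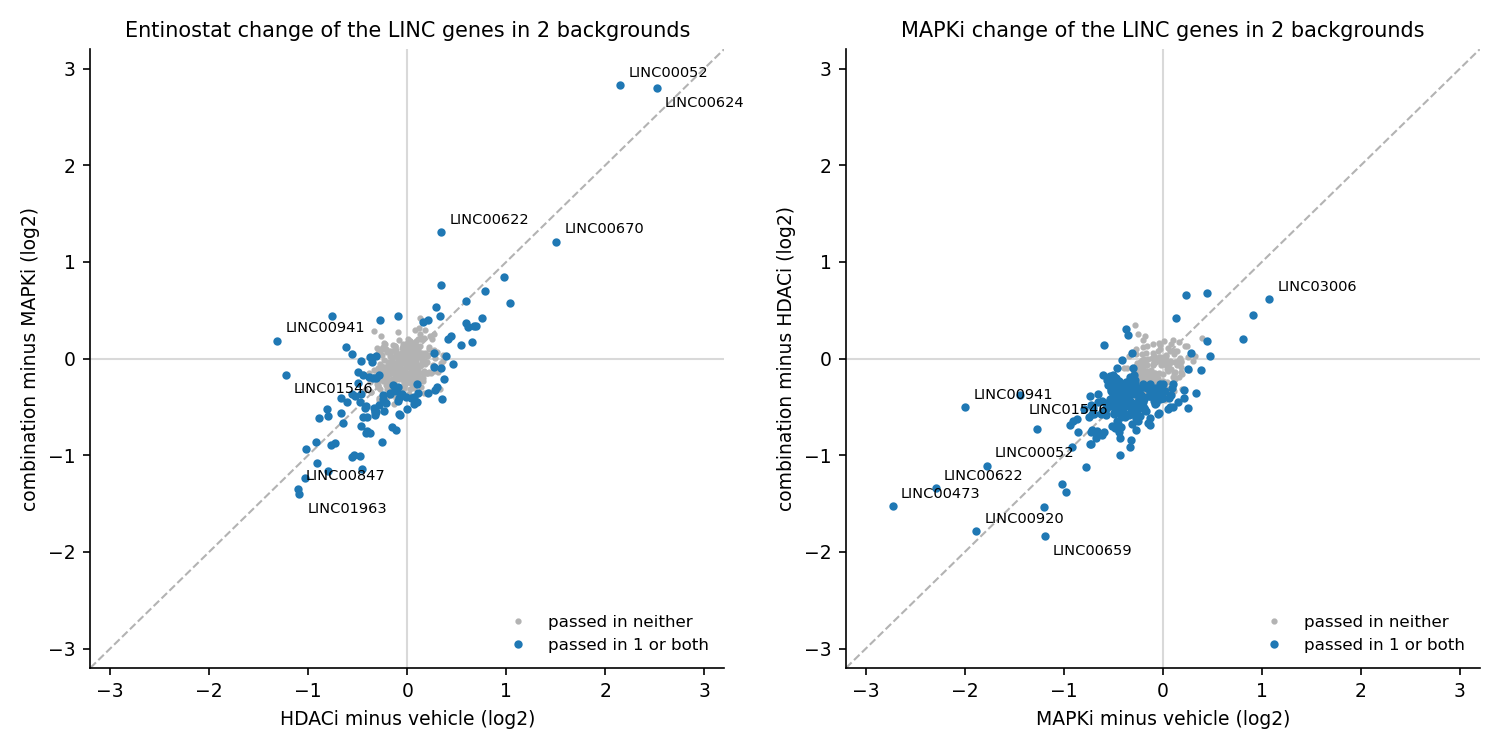
Log2 change of each of the 453 LINC genes (points) in 2 backgrounds with no arrays in common: entinostat with MAPKi against entinostat without it (left) and MAPKi with entinostat against MAPKi without it (right); blue points passed in 1 or both comparisons, and the dashed line marks equal change. LINC00052, LINC00624 and LINC00670 lie high on both axes at the left, while LINC00941 lies near 0 on the vertical axis; at the right LINC00473, LINC00622 and LINC00941 lie above the line.

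The interaction, (combination minus MAPKi) minus (HDACi minus vehicle), asked whether entinostat's effect on a gene differed when MAPKi was present. Of the 453 LINC genes, 7 (1.55%) were higher and 9 (1.99%) lower, against 3.16% of all genes higher and 4.84% lower. After quantile normalization 11 were higher and 9 lower, against 6.21% and 6.26% of all genes, and of the LINC genes 6 and 6 had also passed in that direction on the deposited scale. These counts rest on few arrays. With 1 array left out at a time, 3 to 8 were higher and 1 to 12 lower, and 4 genes, LINC00941, LINC00473, LINC00622 and LINC00965, passed in all 12 such fits.

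LINC00941 had the largest interaction (1.50 ± 0.15, adjusted p = 1.7e-05 in limma, quantile 1.33). It had 4.97, 4.88 and 5.20 with the combination, 4.77, 4.86 and 4.86 with MAPKi, 5.61, 5.56 and 5.38 with HDACi and 6.89, 6.75 and 6.85 with vehicle. Entinostat thus lowered it by 1.31 ± 0.11 without MAPKi, whereas with MAPKi the change was 0.19 ± 0.11 and did not pass. Every drug-treated group lay at least 1 log2 unit below vehicle, and the lowest of them are in the dim range of the array. LINC00473 fell with entinostat alone (-0.76 ± 0.16, quantile -0.37, not passing) and rose with it in the presence of MAPKi (0.44 ± 0.16, quantile 0.91), an interaction of 1.20 ± 0.23 (adjusted p = 0.003 in limma, quantile 1.28). LINC00622 rose with entinostat in both, by 1.30 ± 0.13 with MAPKi and by 0.35 ± 0.13 without it. It had 7.28, 7.04 and 6.91 with the combination, 5.76, 5.79 and 5.77 with MAPKi, 8.48, 8.54 and 8.23 with HDACi and 8.31, 7.84 and 8.07 with vehicle, an interaction of 0.96 ± 0.19 (adjusted p = 0.0036 in limma, quantile 1.07).

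LINC00965 went the other way. It had 6.89, 7.15 and 6.89 with the combination, 7.34, 7.49 and 7.35 with MAPKi, 7.39, 7.48 and 7.60 with HDACi and 7.27, 6.98 and 7.17 with vehicle. Entinostat raised it without MAPKi (0.35 ± 0.11) and lowered it with MAPKi (-0.41 ± 0.11), an interaction of -0.76 ± 0.16 (adjusted p = 0.0062 in limma, quantile -0.59), although after quantile normalization the change with MAPKi present was 0.07 and did not pass. LINC00052 passed narrowly on the deposited scale (0.67 ± 0.20, adjusted p = 0.048 in limma) and in 2 of the 12 fits with 1 array left out. Its quantile interaction was 1.17, and its arrays with MAPKi lay in the dim range. LINC00624 did not pass (0.28 ± 0.18, adjusted p = 0.42 in limma) but did after quantile normalization (0.88, adjusted p = 0.0024 in limma).

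**Figure D4:**
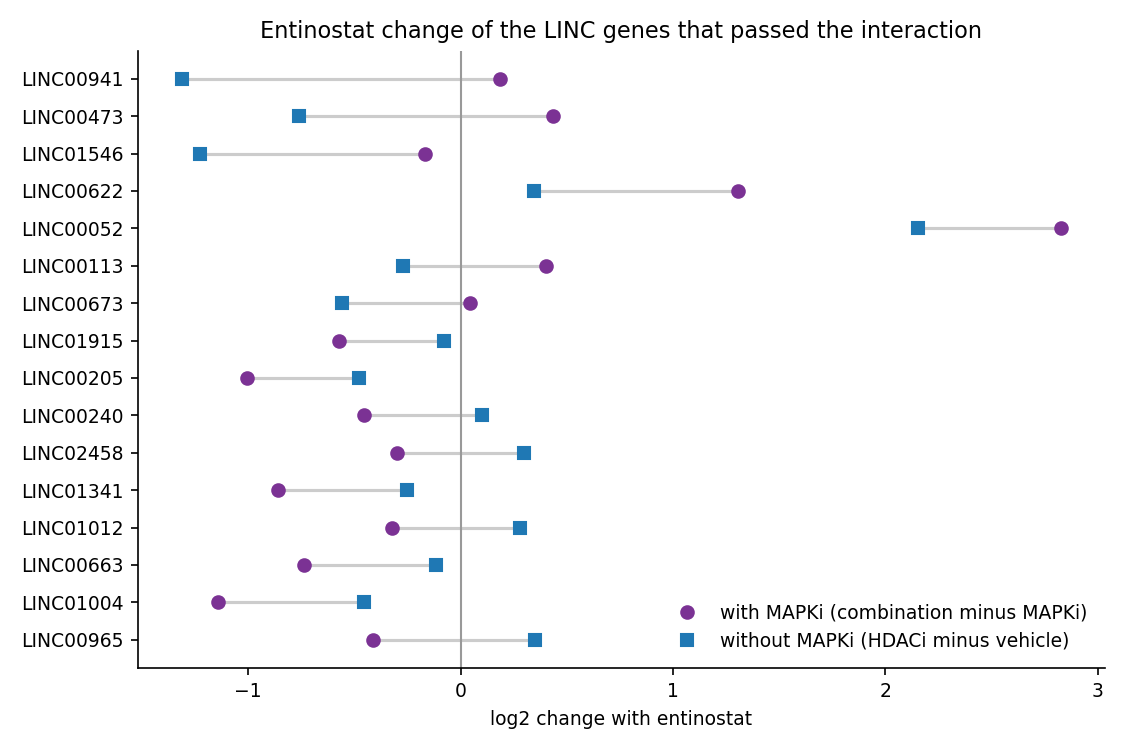
Log2 change with entinostat in the presence of MAPKi (circles, combination minus MAPKi) and without it (squares, HDACi minus vehicle) for the 16 LINC genes that passed the interaction on the deposited scale, joined by a line per gene and ordered by the interaction. LINC00941 has the longest line, at 0.19 with MAPKi and at -1.31 without it.

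LINC genes known from melanoma or other tumours were looked up by name, and 9 of 11 had a row. LINC00518, one of the transcripts read by a skin patch test for melanoma, had 3.36, 3.46 and 3.55 with the combination, 3.37, 3.82 and 3.40 with MAPKi, 3.51, 3.30 and 3.64 with HDACi and 3.25, 3.37 and 3.06 with vehicle. It was in the dimmest bin, and it passed in none of the 3 comparisons with vehicle on the deposited scale. After quantile normalization it passed with the combination (0.37, adjusted p = 0.044 in limma). LINC00520 (0.10, 0.03 and 0.08 with the combination, MAPKi and HDACi against vehicle) and LINC00261, a transcript that helps to activate its neighbour FOXA2 in endoderm (-0.07, -0.13 and 0.13), did not pass either. LINC00673, also called SLNCR and tied to melanoma invasion, was bright, with 9.25, 9.43 and 9.35 with the combination, 9.27, 9.29 and 9.34 with MAPKi, 9.04, 9.20 and 9.06 with HDACi and 9.77, 9.44 and 9.76 with vehicle. It fell with the combination against vehicle on the deposited scale (-0.31 ± 0.11) and was higher after quantile normalization (0.85), and likewise with MAPKi (-0.36 ± 0.11, quantile 0.44), so its direction against vehicle depends on the scaling. LINC01116 fell with all 3 treatments (-1.41, -0.80 and -0.89 with the combination, MAPKi and HDACi), of which the fall with MAPKi did not pass after quantile normalization. LINC00460, tied to epithelial-mesenchymal transition in carcinomas, fell with the combination (-0.68 ± 0.13, quantile -0.38) and with MAPKi (-0.60 ± 0.13, quantile -0.38) and did not pass with HDACi (0.08 ± 0.13). With each array's median subtracted, its change with the combination turned to 0.12 and did not pass.

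LINC genes were also set beside their nearest protein-coding gene in the RefSeq table. All 453 were placed, 31 of them overlapping that gene, and in 275 pairs both were measured. Across these pairs the changes with MAPKi had an r of 0.171 and those with HDACi an r of 0.0557. Of 96 LINC genes in the pairs that fell with MAPKi, 74 had a neighbour that fell, while 68.7% of all these neighbours fell. With HDACi, 13 of 23 fallen LINC genes had a neighbour that fell, while 30.9% of the neighbours did, and 5 of 17 that rose had one that rose, while 15.6% did. Brightness moves with both members of a pair, and its part was not tested. LINC01426 and its neighbour RUNX1, a blood and epithelial transcription factor, both rose with HDACi (0.75 ± 0.18 and 0.56 ± 0.14). LINC00472 rose with OGFRL1 (0.54 ± 0.11) and LINC00670 with MYOCD (0.34 ± 0.10). Other pairs parted. EFNB2, which encodes an ephrin ligand, rose by 3.32 ± 0.14 with HDACi beside LINC00460, which did not pass. LINC00941 fell by 1.31 with HDACi while CAPRIN2, its neighbour, rose by 0.54 ± 0.10 (quantile 0.95).

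Other long non-coding RNAs in the same data give the setting. Of 908 with other names, 36 (3.96%) rose and 559 (61.6%) fell with the combination against vehicle. With MAPKi it was 34 (3.74%) and 385 (42.4%), and with HDACi 62 (6.83%) and 220 (24.2%). Over all genes 4.38% were higher and 74.3% lower with the combination, 2.97% and 66.2% with MAPKi, and 10.4% and 37.2% with HDACi. The median changes of the 908 were -0.43, -0.28 and -0.13. The 908 were not matched to the LINC genes in brightness, and the part of brightness was not tested. Of 113 genes formerly named LINC, some of which may be among the 908, 7 (6.19%) rose and 60 (53.1%) fell with the combination. With MAPKi it was 7 (6.19%) and 47 (41.6%), and with HDACi 12 (10.6%) and 26 (23.0%). After quantile normalization 188 (20.7%) were higher and 116 (12.8%) lower with the combination, against 22.1% and 24.2% of all genes. Of 9 small nucleolar RNA host genes (SNHG), all 9 fell with the combination, 8 with MAPKi and 5 with HDACi, and after quantile normalization 3 were higher and 3 lower with the combination. Of 16 known long non-coding RNAs looked up by name, 3 rose and 6 fell with HDACi. With MAPKi it was 1 and 9, and with the combination 1 and 11. Of 24 microRNA host genes, 2 rose and 7 fell with HDACi, 3 and 12 with MAPKi and 3 and 13 with the combination. After quantile normalization 5 of the 16 were higher and 3 lower with HDACi, and of the 24, 3 and 4. The genes named next all rose with HDACi and do not stand for these lists. MEG3, an imprinted transcript with growth-suppressing activity, rose with HDACi (1.20 ± 0.18, quantile 1.29) and fell with MAPKi (-0.99 ± 0.18, quantile -0.58), as LINC00052 did. MIR31HG, the host transcript of a microRNA, did the same (1.36 ± 0.20 with HDACi and -0.91 ± 0.20 with MAPKi). BANCR, a transcript first described as induced by mutant BRAF in melanoma, rose with the combination (0.41 ± 0.13, quantile 1.06), MAPKi (0.56 ± 0.13, quantile 0.96) and HDACi (0.54 ± 0.13, quantile 0.58).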

How the data were processed

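RNA from Hs695T cells was hybridised to 12 single-colour Affymetrix arrays, 3 for each of 4 treatments. The deposited table holds a linear intensity per probe set, made with RMA in Transcriptome Analysis Console per the submitters' processing notes. ERCC spike-in was added before extraction per the labels' protocols. How arrays were scaled, and whether the spike-in was used, is not given in the sources used here, so the direction of a general shift cannot be checked. The platform's probe table linked 14783 of 29592 rows to 1 symbol, 0 to several and 14809 to none. The brightest row was kept for each of 14599 genes.

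The log2 of each deposited intensity was fitted in R 4.3.3 by limma 3.58.1, through lmFit and eBayes. The model held all 12 arrays and 4 group means, with 8 residual and 7.68 prior degrees of freedom. Each p was adjusted by Benjamini-Hochberg over 14599 genes in each of 6 comparisons, and a gene passed under 0.05. Having 3 arrays per group limits precision. The fit was tested on simulated data. The members and lists were chosen with earlier results of these data known.

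In each comparison with vehicle the rule named the 12 largest rises and falls, and in the others the 8 largest each way, among LINC genes that passed and whose arrays did not overlap (an overlap has no meaning for the interaction), and it always named LINC00052, LINC00624 and 11 chosen genes where measured. LINC01915 in the interaction falls outside it and was named after its values were seen. Same-numbered arrays were compared as a check for pairing: their deviations from the group means had an r that ran from -0.106 to 0.121, with 2 of 18 pairs over 0.1, so arrays were not treated as paired. Neighbours come from the RefSeq gene table of GRCh38.p14, used for names and order only. Promoter windows come from RefSeq on the same build. Alternatives were quantile normalization, subtraction of each array's median, leaving out the dimmest 40% of genes, trend and robust variance, the mean of a gene's rows, all rows tested, only the arrays compared, the replicate number as a block, symbols as given, and leaving out each array in turn. Quantile normalization with the block was added after seeing the data. Figures were drawn with matplotlib 3.10.9.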

Additional observations from a re-analysis of the deposited data

Results flagged for a closer look

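For 16 LINC genes the change with entinostat differed between cells with and without MAPKi by limma's interaction term, with adjusted p over all genes. In 7 the interaction was positive: LINC00941 (1.50), LINC00473 (1.20), LINC01546 (1.06), LINC00622 (0.96), LINC00052 (0.67), LINC00113 (0.67) and LINC00673 (0.60). In 9 it was negative: LINC00965 (-0.76), LINC01004 (-0.69), LINC00663 (-0.62), LINC01341 (-0.60), LINC01012 (-0.60), LINC02458 (-0.60), LINC00240 (-0.56), LINC00205 (-0.53) and LINC01915 (-0.50). LINC01546, LINC01012, LINC02458 and LINC01915 did not pass after quantile normalization.

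With 1 array left out at a time, LINC00941, LINC00473, LINC00622 and LINC00965 passed in 12 of 12 fits, LINC00663 in 8, LINC00673 and LINC01012 in 7, LINC01546 in 6, LINC01004 and LINC02458 in 4, LINC00113, LINC01341, LINC00205 and LINC01915 in 3, and LINC00052 and LINC00240 in 2. The sign of each held in all 12. LINC00663 has another row, whose interaction was -0.24. LINC00113 and LINC02458 lie in the dim range, with mean log2 intensities of 3.01 and 3.23 with the combination, 2.61 and 3.53 with MAPKi, 2.70 and 3.68 with HDACi and 2.98 and 3.38 with vehicle, where a signal above background is not assured.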

How the results depend on the processing

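Counts are given as higher and lower LINC genes by limma. Quantile normalization gave 42 and 19 for MAPKi, 37 and 19 for HDACi and 56 and 34 for the combination against vehicle. The combination set against MAPKi gave 41 and 40, set against HDACi it gave 32 and 13, and it was 11 and 9 for the interaction. With the replicate block added, chosen after seeing the data, it gave 41 and 21 for MAPKi, 24 lower for HDACi, 53 and 39 for the combination, 43 higher against MAPKi, 33 and 13 against HDACi, 12 higher for the interaction, and an r of 0.564 between the MAPKi effects. Subtracting each array's median gave 227 and 16, 83 and 27, and 313 and 27 for MAPKi, HDACi and the combination against vehicle, 78 and 28 against MAPKi and 204 and 13 against HDACi. More LINC genes were then higher than lower in each of these, opposite to the deposited scale. Shares over all genes are not given for this setting. Dim genes in general fell less: with the combination the median change was -0.34 in the dimmest 40% of all genes, against -0.72 over all genes. Without the dimmest 40% of genes, where fewer genes were tested, 5 and 58 passed for MAPKi, 9 higher for HDACi, 3 and 65 for the combination, 8 higher against MAPKi and 66 lower against HDACi, with r of 0.865 and 0.793 for the entinostat and MAPKi effects. Leaving out 1 array at a time gave 7 to 14 and 107 to 168 for MAPKi, 18 to 29 and 32 to 52 for HDACi, 10 to 16 and 182 to 255 for the combination, 13 to 23 and 51 to 98 against MAPKi, 3 to 7 and 131 to 234 against HDACi, and 3 to 8 and 1 to 12 for the interaction, where 1 was lower without vehicle replicate 2. The r ranged from 0.685 to 0.703 and from 0.644 to 0.67.

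The replicate block alone, for numbers that did not pair the arrays, gave 11 and 161 for MAPKi, 25 and 49 for HDACi, 15 and 229 for the combination, 19 and 71 against MAPKi, 5 and 200 against HDACi, and 6 and 7 for the interaction. Of 138 results for named genes, 114 kept direction and call under quantile normalization, 118 with the array median subtracted and 134 under the block, as did 1523 of 1656 with 1 array left out. Signs turned under quantile normalization, with and without the block, for LINC00624 between the combination and HDACi (0.63), LINC00467 with the combination (0.16), and LINC00673 with MAPKi (0.44) and the combination (0.85). They turned with the median subtracted for LINC00624 with MAPKi (0.0703) and between the combination and HDACi (0.39), LINC00261 with MAPKi (0.42) and the combination (0.73), LINC00673 with MAPKi (0.19) and the combination (0.49), and LINC00460 with the combination (0.12). With 1 array left out, genes that did not pass crossed 0: LINC00261 ranged from -0.251 to 0.0132 with MAPKi and from -0.3054 to 0.0859 with the combination, LINC00460 from -0.0068 to 0.1915 with HDACi, and LINC00520 from -0.1517 to 0.2736 with MAPKi and from -0.0192 to 0.178 with HDACi. Depth is not defined for arrays, and no measure of signal over background was used. The cause of these changes was not tested.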
